A study of Homo sapiens with 6 samples.

Results

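Of 65315 chromatin regions with a peak of BRG1 or SMARCC2 in LNCaP or MR49F prostate cancer cells, 8128 held a peak of MR49F SMARCC2 and no peak of MR49F BRG1, LNCaP SMARCC2 or LNCaP BRG1. These regions, the MR49F SMARCC2-alone regions, were selected on the peak calls themselves: peaks of the 4 deposited lists were merged wherever they touched by 1 bp or more, on chromosomes 1 to 22 and X, and a region was kept where the MR49F SMARCC2 list was the only one present. They were 12.4% of all regions and 17.8% of the 45782 regions with an MR49F SMARCC2 peak, and since the rule used these calls the shares are a description. Every one of the 8128 regions consisted of a lone peak. Together they covered 4.35 Mb of the 44.7 Mb under peaks of that list. Compared with regions found in MR49F with both antibodies, the SMARCC2-alone regions lay less often at gene ends and more often between genes. Within the MR49F SMARCC2 list they made up a larger part inside long genes and tended to do so on chromosomes with few genes per Mb.

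SMARCC2, also called BAF170, is a scaffold subunit around which SWI/SNF complexes are built, and BRG1, the product of SMARCA4, is one of the alternative ATPases that give the complex its power to slide or evict nucleosomes. The complex can carry BRM, the product of SMARCA2, in place of BRG1, so a SMARCC2 peak does not require BRG1; BRM was not measured here. In prostate cells SWI/SNF works with lineage factors such as FOXA1 at enhancers, many of which lie far from the genes they act on. MR49F cells, derived from LNCaP and resistant to the antiandrogen drug enzalutamide, were kept in 10 µM enzalutamide. LNCaP is a prostate adenocarcinoma line that responds to androgen and has no enzalutamide given in its labels, so line and drug exposure cannot be told apart. Both were grown in RPMI medium with 10% FBS and fixed with 2 mM DSG for 45 min and 1% formaldehyde for 10 min, and 4 µg of antibody was used. The groups were MR49F SMARCC2, MR49F BRG1, LNCaP SMARCC2 and LNCaP BRG1, with 1 library each, so no difference between them has a replicate check. Intervals in brackets are Wilson 95% intervals and cover counting error only.

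Few of the regions reached a promoter, and the windows of the 4 strongest that did are shown as examples, not as typical of the set. The windows below run from 250 bases before to 50 bases after the start of a protein-coding gene, in GRCh38.p14 and as given by RefSeq, and capitals mark matches, on either strand, to the motifs searched, here the SP/KLF letters GGGCGGGG, the CTCF core letters AGGGGGC and the NFY letters CCAATCA. PIK3C2G encodes a class II phosphoinositide 3-kinase, and its window (chr12:18261268-18261567, plus strand) held 37.3% G and C and no motif match.
PIK3C2G: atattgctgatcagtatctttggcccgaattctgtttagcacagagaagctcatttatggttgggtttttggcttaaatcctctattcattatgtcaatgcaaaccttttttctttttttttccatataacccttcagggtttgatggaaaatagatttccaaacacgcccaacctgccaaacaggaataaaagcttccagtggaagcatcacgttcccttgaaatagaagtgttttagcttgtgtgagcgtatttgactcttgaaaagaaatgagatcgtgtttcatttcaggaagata
HTR5A encodes a serotonin receptor, and its window (chr7:155070074-155070373, plus strand) held 68.7% G and C with 1 match to the SP/KLF letters.
HTR5A: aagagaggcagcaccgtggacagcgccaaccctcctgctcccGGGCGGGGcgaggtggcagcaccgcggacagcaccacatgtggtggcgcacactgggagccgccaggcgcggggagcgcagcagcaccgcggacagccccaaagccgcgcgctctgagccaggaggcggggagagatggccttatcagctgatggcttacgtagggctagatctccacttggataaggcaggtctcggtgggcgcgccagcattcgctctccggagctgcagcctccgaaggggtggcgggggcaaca
CGRRF1 encodes a RING finger protein, and its window (chr14:54509656-54509955, plus strand) held 70.3% G and C with a match each to the CTCF core, NFY and SP/KLF letters.
CGRRF1: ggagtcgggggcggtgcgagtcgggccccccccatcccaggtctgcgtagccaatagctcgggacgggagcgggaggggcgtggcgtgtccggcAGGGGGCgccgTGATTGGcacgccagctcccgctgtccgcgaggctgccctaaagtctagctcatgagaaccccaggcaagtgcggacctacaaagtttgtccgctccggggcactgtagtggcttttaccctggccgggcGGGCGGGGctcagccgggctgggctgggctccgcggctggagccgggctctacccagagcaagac
PRSS23 encodes a serine protease, and its window (chr11:86790821-86791120, plus strand) held 49.0% G and C and no motif match.
PRSS23: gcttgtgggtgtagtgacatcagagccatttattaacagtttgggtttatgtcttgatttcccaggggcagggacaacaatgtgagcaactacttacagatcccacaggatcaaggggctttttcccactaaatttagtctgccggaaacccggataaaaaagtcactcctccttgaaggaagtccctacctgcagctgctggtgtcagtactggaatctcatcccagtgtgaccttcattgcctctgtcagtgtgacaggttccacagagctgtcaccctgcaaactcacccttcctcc
The middle range of G and C over all windows reached was 56.3% to 72.0% (quartiles), so PIK3C2G and PRSS23 lay below it. The peak at PIK3C2G had a −log10 q of 19.3, with 31 tags at its summit over a local background of 2.82 tags, and its summit lay 58 bases before the gene start. At HTR5A the −log10 q was 16.9 with 40 tags, at CGRRF1 16.1 with 39 tags and at PRSS23 13.8 with 30 tags. At CGRRF1 the peak covered 93 of the 300 bases, and its summit lay 324 bases after the start. At PIK3C2G, the whole gene neighbourhood held 3 MR49F SMARCC2 and 2 MR49F BRG1 peaks, against 0 LNCaP SMARCC2 and 0 LNCaP BRG1 peaks. In the same order the counts were 1, 1, 0 and 0 at HTR5A, 4, 2, 1 and 1 at CGRRF1, and 2, 1, 1 and 1 at PRSS23.

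The SMARCC2-alone regions were mostly weak peaks. Their median −log10 q, the authors' value for each peak, was 6.31 (5th percentile 2.71, 95th percentile 18.1, highest 69.1), against 12.3 for the other 39398 peaks of the same list. The median fold enrichment over local background was 4.33, against 5.60 in the other peaks. At the summit they had a median of 19 tags over a background of 3.43 tags, against 29 tags over 4.42 tags. Their median width was 484 bp, against 842 bp. The share of peaks found alone was 38.3% [36.9 to 39.7] in the weakest 10% of the list and 0.821% [0.601 to 1.12] in the strongest 10%. The calls that chose the regions came from these same values, so they are given without a test.

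**Figure D1:**
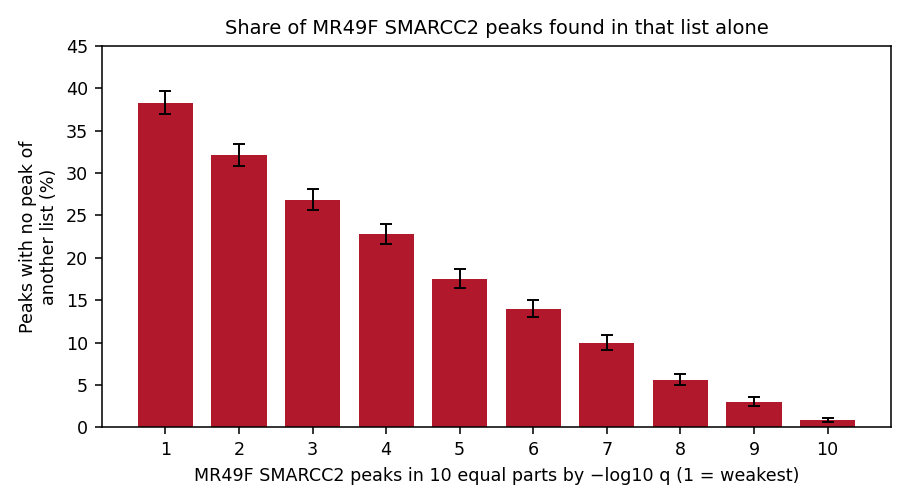
Share of MR49F SMARCC2 peaks that overlapped no peak of the other 3 lists, in percent (y axis), in 10 equal parts of that list ordered by −log10 q (x axis, 1 is the weakest). Bars are shares and whiskers Wilson 95% intervals; the share is 38.3% in the weakest part and 0.821% in the strongest.

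Tag counts showed the same gradient. Of 2482 MR49F SMARCC2 peaks with 10 to 14 tags at the summit, 51.3% were alone and 37.3% overlapped a BRG1 peak of the same line. With 20 to 29 tags, 18.3% were alone and 72.3% overlapped BRG1. Of 4140 peaks with 60 tags or more, 22 were alone (0.531%) and 99.3% overlapped BRG1. A peak without a partner therefore says that the caller's threshold, a q of 0.01, was not reached in the other lists, not that the protein was absent. The fewest tags at which a peak was called was 10 in both MR49F lists.

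Close to the border of the selection, peaks inside and outside it had like strengths. Within 100 bp of a peak of another list but not touching it were 95 SMARCC2-alone regions with a median −log10 q of 4.62 and 18 tags, while 198 MR49F SMARCC2 peaks that overlapped another list by at most 100 bp had a median of 4.51 and 17.5 tags. The 3 regions nearest the border lay 1 bp from a peak of another list, at chr12:7018971-7019418, chr16:89342321-89342688 and chr6:142821891-142822258. At the lower limit of strength, chr12:113185900-113186339 had a −log10 q of 2.00 with 24 tags over 10.7, and chr14:54441868-54442314 had 2.02 with 14 tags over 4.74. Within 500 bp of a peak of another list lay 506 regions (6.23%), with a median −log10 q of 4.71 and 18 tags. The 10665 peaks that overlapped another list by at most 500 bp had 7.22 and 22 tags. Peaks of the list were as narrow as 350 bp, so that group can include peaks wholly covered by another peak. At 500 bp the values are therefore no comparison across the border.

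Place relative to genes was not used by the rule. Of the SMARCC2-alone regions, 6.58% [6.06 to 7.14] were centred no more than 1 kb from either end of a protein-coding gene, 47.9% lay elsewhere inside such a gene and 45.5% lay between genes. Regions found in MR49F with both antibodies had 18.6% [18.0 to 19.4] at a gene end and 38.0% between genes. MR49F BRG1-alone regions had 17.8% at a gene end and 37.1% between genes, and regions in all 4 lists had 23.8% and 28.0%. The SMARCC2-alone share at gene ends was thus far below those of its 3 comparisons that include BRG1, with intervals that did not touch. LNCaP SMARCC2-alone regions, taken with the same antibody in the other line, had 7.46% [6.36 to 8.73] at a gene end, an interval that overlaps that of MR49F, but 58.0% inside genes and 34.6% between genes. A low share at gene ends was therefore found with SMARCC2 alone in either line, and the larger share between genes was seen in MR49F.

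**Figure D2:**
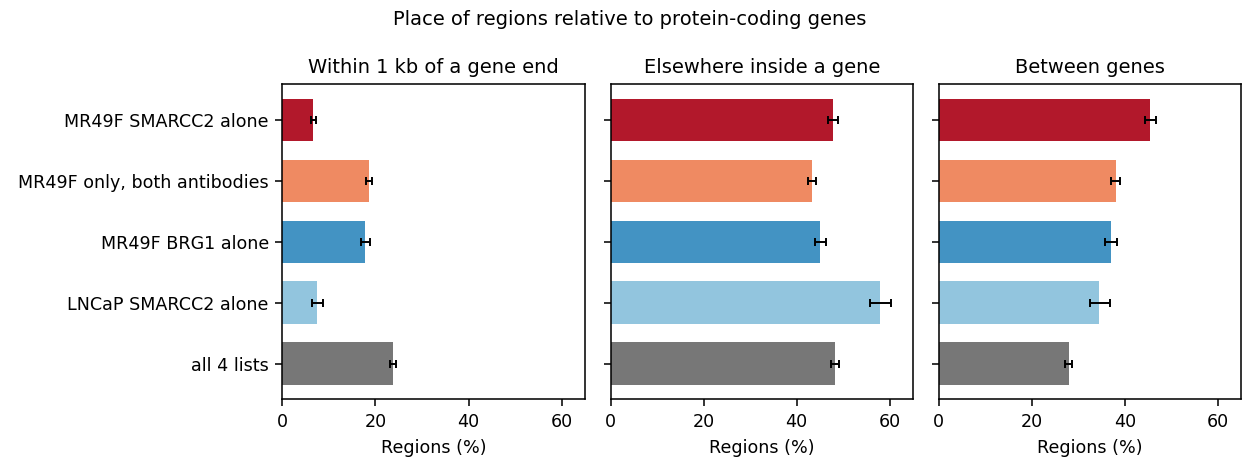
Share of regions in percent (x axes) within 1 kb of a protein-coding gene end, elsewhere inside a gene and between genes, for MR49F SMARCC2-alone regions and 4 other region classes. Bars are shares and whiskers Wilson 95% intervals; the MR49F SMARCC2-alone bar is 6.58% at gene ends and 45.5% between genes.

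The lower share at gene ends held at matched peak strength. Among regions with a −log10 q of 2 to 4, 9.58% [8.26 to 11.1] of SMARCC2-alone regions and 29.0% [26.1 to 32.0] of MR49F regions with both antibodies lay at a gene end. Between 12 and 20 the shares were 3.36% and 16.5%. At 20 or more, 1 of 306 SMARCC2-alone regions lay at a gene end (0.327%), against 7.32% of MR49F regions with both antibodies. The difference was present in each of the 6 strength bands. Within the SMARCC2-alone regions the stronger ones lay further from genes: the share between genes was 39.0% in the lowest band and 55.6% in the highest. This was not particular to them. The share went from 28.1% to 48.4% in MR49F regions with both antibodies, and from 28.4% to 37.9% in all other regions with an MR49F SMARCC2 peak. The 535 SMARCC2-alone regions at gene ends had a median −log10 q of 5.10 and a maximum of 22.7, those inside genes a median of 6.20 and those between genes 6.79. Median tags were 19 in each of the 3 places, and the local background was 4.14 tags at gene ends, 3.55 inside genes and 3.38 between genes.

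**Figure D3:**
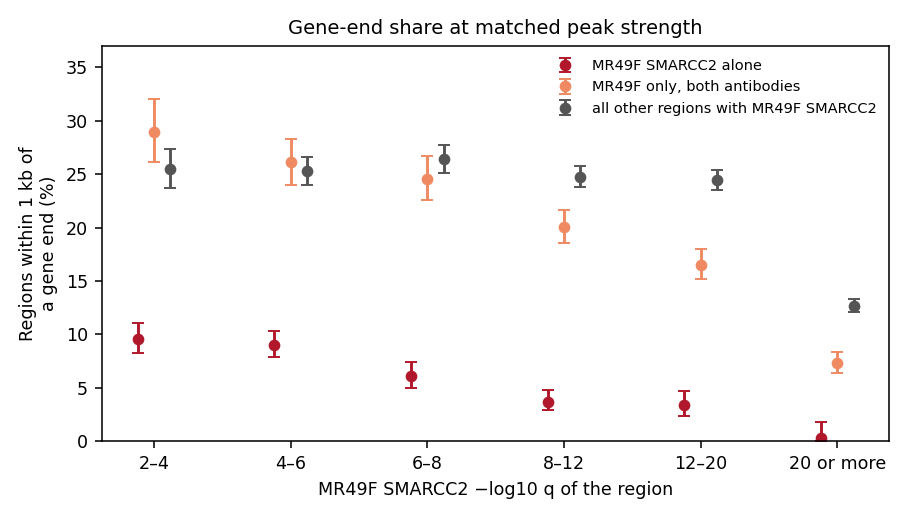
Share of regions within 1 kb of a gene end in percent (y axis) by bands of the MR49F SMARCC2 −log10 q (x axis), for MR49F SMARCC2-alone regions, MR49F regions with both antibodies and all other regions with an MR49F SMARCC2 peak. Points are shares and whiskers Wilson 95% intervals; the SMARCC2-alone points run between 9.58% and 0.327% and lie under the others in each band.

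Distance gave the same picture on a longer scale. The median distance to the nearest gene end was 48.3 kb for SMARCC2-alone regions, against 23.9 kb for MR49F regions with both antibodies, 15.5 kb for MR49F BRG1 alone, 33.8 kb for LNCaP SMARCC2 alone and 17.3 kb for regions in all 4 lists. More than 100 kb from any gene end lay 34.9% [33.9 to 36.0] of the SMARCC2-alone regions, against 22.9%, 16.1%, 25.9% and 17.7% of the other classes in the same order. For gene starts, 5.27% [4.80 to 5.77] of SMARCC2-alone regions lay within 1 kb, against 16.6%, 15.4%, 6.08% and 21.6%. Among non-coding genes, a lncRNA gene touched 16.7% [15.9 to 17.5] of SMARCC2-alone regions and 17.3% [16.6 to 18.0] of MR49F regions with both antibodies. At tRNA genes there were 0 of 8128, with an upper Wilson limit of 0.0472%, against 11 of 11968 MR49F regions with both antibodies (0.0919% [0.0513 to 0.165]). At miRNA genes there were 7 (0.0861% [0.0417 to 0.178]), against 0.234% [0.162 to 0.338] of MR49F regions with both antibodies and 0.478% of regions in all 4 lists. They lay at MIR6079, MIR12133, MIR5702, MIR28, MIR3666, MIR422A and MIR3181. LNCaP SMARCC2-alone regions had 0 of 1890 at tRNA genes and 0 at miRNA genes, each with an upper limit of 0.203%. Median widths were 484 bp for SMARCC2-alone regions and 926 bp for MR49F regions with both antibodies. The part of width in these overlaps was not tested.

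**Figure D4:**
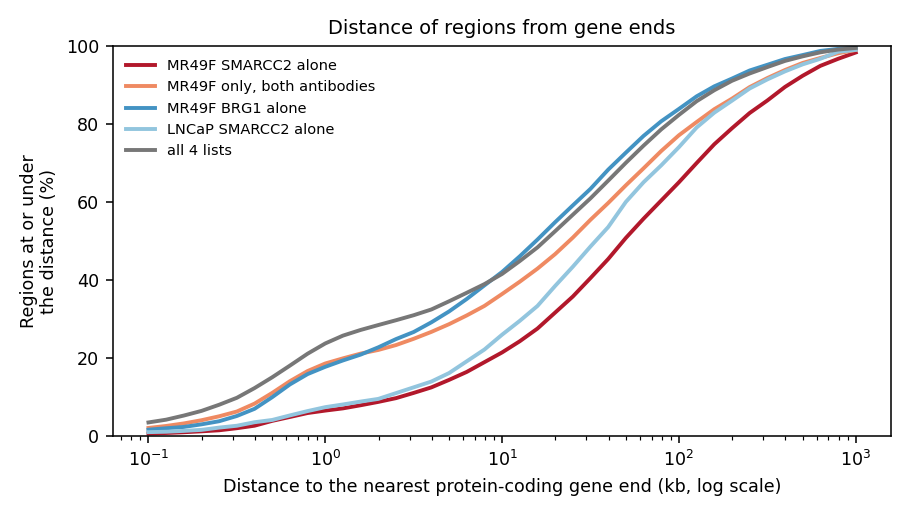
Share of regions in percent (y axis) at or under a given distance to the nearest protein-coding gene end in kb (x axis, log scale), for 5 region classes. The curve of MR49F SMARCC2-alone regions runs furthest to the right beyond 10 kb, with a median of 48.3 kb.

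The regions also lay further from other occupied chromatin. The median gap to the nearest peak of MR49F BRG1 was 17.6 kb, to LNCaP BRG1 27.6 kb and to LNCaP SMARCC2 35.5 kb. To any peak of the other 3 lists it was 13.2 kb, and 43.3% [42.3 to 44.4] of the regions had such a peak within 10 kb. The nearest region common to all 4 lists was a median of 59.9 kb away, against 50.8 kb for MR49F regions with both antibodies, 39.5 kb for MR49F BRG1 alone and 42.6 kb for LNCaP SMARCC2 alone. Counting neighbours of any class, the median gap was 10.6 kb, against 7.82, 5.15 and 8.83 kb in the same order.

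By chromosome, the SMARCC2-alone share of the MR49F SMARCC2 regions was highest on X (25.8% [23.7 to 28.0]), 13 (25.6% [23.0 to 28.4]) and 18 (25.4% [23.0 to 28.0]). It was lowest on 19 (8.88% [7.27 to 10.8]), 22 (10.4%), 17 (10.8%) and 16 (11.1%). Protein-coding genes per Mb were 2.96 on 13 and 3.36 on 18, but 5.44 on X, and chromosome 11 had 16.2% at 9.64. With such exceptions, chromosomes with many genes per Mb tended to have low shares. Over the 23 chromosomes, Spearman's rho between this share and protein-coding genes per Mb was −0.76, and −0.78 without X, given as a description because the chromosomes share the same libraries. SMARCC2-alone regions per Mb had a rho of −0.47 with gene density, against 0.48 for MR49F regions with both antibodies and 0.36 for regions in all 4 lists. The local background under SMARCC2 peaks moved with the line on some chromosomes: after scaling to the whole genome the ratio of MR49F over LNCaP was 1.31 on X, 1.16 on 18 and 0.745 on 13. The part of this background in the shares was not tested. Leaving out X gave 7706 regions, 6.57% of them at a gene end.

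**Figure D5:**
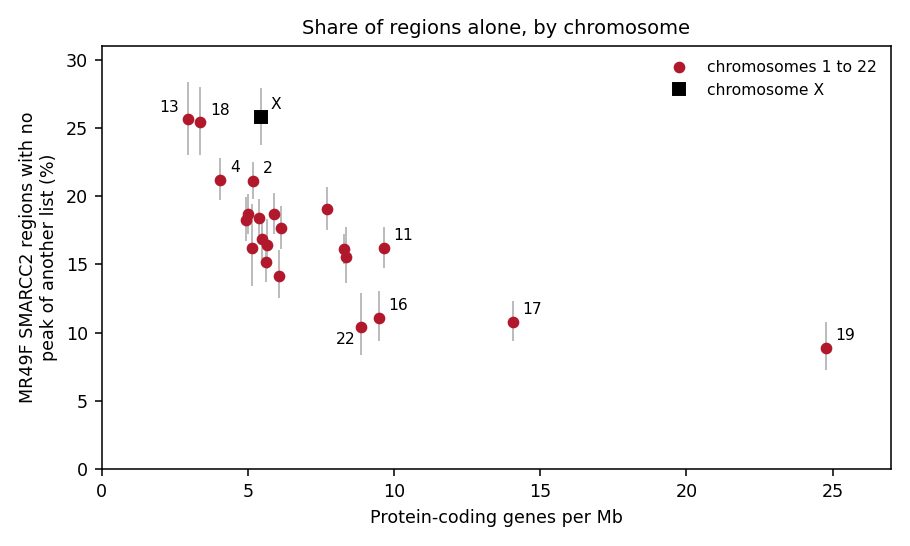
Share of MR49F SMARCC2 regions with no peak of another list in percent (y axis) against protein-coding genes per Mb (x axis), 1 point per chromosome with Wilson 95% intervals. Chromosomes X, 13 and 18 lie at 25.8%, 25.6% and 25.4%, and the gene-dense chromosome 19 at 8.88%.

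Along the chromosomes the regions were spread out. Of 3043 windows of 1 Mb, 2516 held at least 1 SMARCC2-alone region, 569 held 5 or more and 19 held 10 or more. The fullest window, chr1:232000001-233000000, held 12 together with 13 MR49F regions with both antibodies, and contains SIPA1L2. Windows with 11 included the one on chromosome 7 with AHR, the dioxin receptor gene, which held 2 MR49F regions with both antibodies. Another, on chromosome 4 with ANK2, the gene of a membrane-skeleton adaptor, also held 11 against 2. The window of FOXP1, a forkhead factor gene on chromosome 3, held 11 against 10. SMARCC2-alone regions thus far outnumbered those with both antibodies at AHR and ANK2 and were nearly equal to them at FOXP1. Regions in all 4 lists numbered 5, 2 and 17 in these windows. The remaining windows with 11 held 14 regions with both antibodies on chromosome 12, 9 on chromosome 2, 5 on chromosome 5 and 2 on chromosome 21. Windows were named from among the fullest after their values were seen.

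When each region was given to its closest protein-coding gene, up to 100 kb from a gene end, 5289 regions (65.1%) fell to 3857 of 19974 genes, or 19.3%. Of these genes 2830 had 1 region, 743 had 2 and 3 had the maximum of 7. The genes with 7 were C1orf21, EFNA5, which encodes an ephrin ligand of Eph receptors, and UBE2E3, which encodes a ubiquitin-conjugating enzyme. EFNA5 (chr5:107376894-107670937) had 23 MR49F SMARCC2, 15 MR49F BRG1, 14 LNCaP SMARCC2 and 16 LNCaP BRG1 peaks in all. Its 7 SMARCC2-alone regions had −log10 q values of 3.11 to 15.7. They came in addition to 7 regions shared by all 4 lists, so EFNA5 was occupied in both lines. C1orf21 likewise had 9 regions in all 4 lists and UBE2E3 had 5.

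Genes with 6 SMARCC2-alone regions were ASPH, a hydroxylase gene, MID1, a ubiquitin ligase gene, ABCA12, a lipid transporter gene, SIPA1L2, a gene of the Rap GTPase-activating family, and KDM6A, which encodes a histone H3K27 demethylase. The gene spans themselves held 1 such region at ABCA12, 6 at ASPH and 5 each at MID1, SIPA1L2 and KDM6A. MID1 differed from the others in having 0 regions in all 4 lists: its peaks numbered 10 with MR49F SMARCC2, 4 with MR49F BRG1, 1 with LNCaP SMARCC2 and 0 with LNCaP BRG1. KDM6A had 49, 45, 14 and 33 peaks in the same order, and 10 SMARCC2-alone regions when LNCaP BRG1 was left out of the rule. Both genes lie on X, where the scaled SMARCC2 background of the surrounding 10 Mb was 1.37 times higher in MR49F at MID1 and 1.52 times higher at KDM6A, and its part was not tested. FSTL5, which encodes a secreted follistatin-like protein on chromosome 4, was among the 16 genes with 5. It had 8, 3, 2 and 2 peaks in the same order, with a background ratio of 0.789.

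Long genes held the largest numbers inside their spans. DLG2, a synaptic scaffold gene of 2173 kb, and PDE4D, a cAMP phosphodiesterase gene of 1553 kb, held 15 each. CTNNA3, an alpha-catenin gene, held 13, and ROBO1, which encodes an axon guidance receptor, held 12. Length alone gives room for more regions, so the share is the better measure. Of MR49F SMARCC2 regions inside genes of under 10 kb, 6.72% [5.55 to 8.12] were SMARCC2-alone. In genes of 100 to 300 kb the share was 16.2% [15.4 to 16.9], and in the 69 genes of 1000 kb or more it was 30.9% [28.0 to 34.0]. The share was higher in each longer band of the 6. Genes with a SMARCC2-alone region had a median length of 71.0 kb, against 46.7 kb for genes with an MR49F region with both antibodies and 24.2 kb for all genes.

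The strongest SMARCC2-alone regions were far above the median and away from gene ends. The strongest, at chr20:34252547-34253262, had a −log10 q of 69.1 with 89 tags over 5.64, and lay inside the overlapping spans of ASIP, the agouti signalling gene, and AHCY, which encodes S-adenosylhomocysteine hydrolase. At chr10:35979017-35979682, 336.5 kb from the nearest gene end, the −log10 q was 67.7 with 70 tags over 2.78. The third, at chr5:79668438-79669026 inside TENT2, a poly(A) polymerase gene, had 60.8 with 90 tags over 7.33. None of these 3 had a peak of another list within 10 kb, so strong tag counts were reached with no call in MR49F BRG1 nearby.

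Others of the 8 strongest lay in CEP128, a centrosomal protein gene (58.6, 80 tags), KAT6B, a histone acetyltransferase gene (57.6, 87 tags), and PAPPA2, a gene of a protease that cuts IGF-binding proteins (54.6, 58 tags). At KAT6B a peak of another list lay 6.56 kb away, and at CEP128 2.40 kb away. The remaining pair lay between genes on chromosome 8. Scaled background ratios of MR49F over LNCaP around the 8 regions were 0.96 to 1.11.

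Androgen-response genes carried SMARCC2-alone regions more often than genes in general, but carried other regions more often too. Of 20 such genes, 10 (50.0%) had at least 1, against 19.3% of all genes. Regions in all 4 lists were at 18 of the 20 (90.0%, against 36.6% of all genes). Of the 145 MR49F SMARCC2 regions at these genes, 17.9% [12.5 to 25.0] were SMARCC2-alone, against 14.9% over all genes, so the list did not differ beyond counting error. FKBP5, a receptor cochaperone gene and a classical androgen and glucocorticoid target, had 4 (−log10 q 2.81 to 7.97), all inside the gene. Its peaks numbered 10 with MR49F SMARCC2, 8 with MR49F BRG1, 2 with LNCaP SMARCC2 and 3 with LNCaP BRG1. ACSL3, which encodes an acyl-CoA synthetase, and PLPP1, which encodes a lipid phosphatase, had 4 each.

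Neuronal adhesion and synapse genes stood out by share. Of the 24 genes, 20 (83.3%) had at least 1 SMARCC2-alone region, against 15 (62.5%) with an MR49F region with both antibodies and 8 (33.3%) with a region in all 4 lists. Of their 89 MR49F SMARCC2 regions, 36.0% [26.8 to 46.3] were SMARCC2-alone, against 14.9% over all genes. These genes are long, with a median of 1185 kb, and inside all genes of 1000 kb or more the share was 30.9% [28.0 to 34.0]. The share of the list counts regions by nearest gene end, up to 100 kb away. That of long genes counts regions inside the gene span, so the shares are not a matched comparison. PTPRD, a receptor tyrosine phosphatase gene, had 3 MR49F SMARCC2 peaks assigned to it, all SMARCC2-alone (−log10 q 3.71 to 7.04), and 0 peaks of the other lists. With a −log10 q of 5 or more asked of MR49F SMARCC2, 1 was left. PTPRD is 2299 kb long and its whole span held 4 SMARCC2-alone regions. Peaks over 100 kb from a gene end were not assigned, so the 0 does not cover the whole gene. NLGN4X, a neuroligin gene on X, had 3 with a scaled background ratio of 1.31. The list was chosen with earlier results known and gets no test.

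Neuroendocrine genes had at least 1 SMARCC2-alone region in 6 of 18 (33.3%, against 19.3% of all genes). Of their 36 MR49F SMARCC2 regions 22.2% [11.7 to 38.1] were SMARCC2-alone, an interval that includes the 14.9% over all genes. SCG2, which encodes a granin of secretory granules, had 2 (6.17 and 9.04), and these were its entire set of peaks in the 4 lists. PCSK1, a prohormone convertase gene, had 2 with a strongest −log10 q of 30.7, and ONECUT2, a transcription factor gene, had 1 of 22.8. The spans of SCG2, PCSK1 and ONECUT2 themselves held 0 SMARCC2-alone regions each. With spans extended by 10 kb the counts were 1, 0 and 0 in that order. Luminal prostate genes had 6 of 16, with 1 at FOLH1, the PSMA gene. Their share of 10.1% [5.22 to 18.7] of 79 regions has an interval that includes the 14.9% over all genes.

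SWI/SNF genes themselves had SMARCC2-alone regions in 6 of 27 (22.2%, near the 19.3% of all genes), and 18.9% [11.6 to 29.3] of their 74 MR49F SMARCC2 regions were SMARCC2-alone, an interval that includes 14.9%. SS18, a subunit of canonical BAF, had 4 with −log10 q values of 6.76 to 26.3, among 7 MR49F SMARCC2 and 2 MR49F BRG1 peaks, against 1 LNCaP SMARCC2 and 3 LNCaP BRG1 peaks. The SS18 span itself held 1 SMARCC2-alone region. ARID2, a subunit of PBAF, had 3 (7.25 to 8.04), and SMARCC1, the paralog of SMARCC2, had 3 weak ones (3.05 to 3.18). Wnt and receptor kinase lists were above all genes in the share of genes but not in the share of regions. Wnt genes had 7 of 16 (43.8%), with 2 at TCF7L2, a factor through which beta-catenin acts, but 12.9% [6.69 to 23.4] of their regions. Receptor kinase genes had 6 of 22, with 4 at EPHA3, 3 at EPHA7 and 3 at IGF1R, and 10.6% [6.28 to 17.2] of their 123 regions. Glucocorticoid genes had 5 of 12, with 4 at ZBTB16, a zinc finger gene, alongside 14 regions in all 4 lists, and basal genes had 5 of 12, with 1 each at SOX9, ALDH1A1 and BMI1. Both counts are 41.7%, against 19.3% of all genes, and the shares of their regions were 15.9% [9.14 to 26.3] and 17.9% [7.88 to 35.6], intervals that include 14.9%. Without LNCaP BRG1 in the rule, ZBTB16 had 7 such regions and SOX9 had 2. With no peak of another list within 2 kb each had 1. With a −log10 q of 5 or more asked of MR49F SMARCC2 each again had 1.

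The other lists lay nearer to or below the 19.3% of all genes. Among them were cell cycle genes at 3 of 21 (MYC, PLK1 and CDKN1B with 1 each), AP-1 factors at 1 of 12 (MAFF), epithelial-mesenchymal genes at 2 of 15 (FN1 with 3 and ZEB1 with 1) and ribosomal protein genes at 3 of 26. Of their regions, 6.12% [2.1 to 16.5] for cell cycle, 4.55% [0.807 to 21.8] for AP-1, 14.8% [5.92 to 32.5] for epithelial-mesenchymal and 12.1% [4.82 to 27.3] for ribosomal genes were SMARCC2-alone, and each interval includes 14.9%. FN1, the fibronectin gene, had 3 of 11.2 to 12.5 among 6 MR49F SMARCC2 and 4 MR49F BRG1 peaks, against 0 LNCaP SMARCC2 and 1 LNCaP BRG1 peaks. Interferon and inflammatory genes had 4 of 20, histone genes 2 of 21, fibroblast genes 2 of 8, hepatocyte and muscle genes 1 of 10 and leukocyte genes 0 of 10.

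At promoters, 176 SMARCC2-alone regions (2.17% [1.87 to 2.51]) overlapped 204 windows of 300 bases of 184 genes. The share was 12.2% for MR49F regions with both antibodies, 6.57% for MR49F BRG1 alone, 2.38% for LNCaP SMARCC2 alone and 21.8% for all 4 lists. Region width moved with these shares and its part was not tested: median widths were 484 bp for SMARCC2-alone regions, and 926, 506, 464 and 1624 bp for the others in that order. The windows had a median of 64.7% G and C, against 67.7% for MR49F regions with both antibodies, 69.0% for all 4 lists and 62.3% for all 22132 windows. On both strands, the letters AGAACA, which steroid hormone receptors can bind as part of a site, were in 14.7% [10.5 to 20.2] of the SMARCC2-alone windows, against 7.55% [6.44 to 8.82] for MR49F regions with both antibodies, 7.29% for all 4 lists and 11.7% for all windows. The interval includes the share of all windows and lies above that of MR49F regions with both antibodies. It overlaps those of MR49F BRG1 alone (9.11% [6.79 to 12.1]) and LNCaP SMARCC2 alone (10.4% [4.53 to 22.2]). The GATA letters AGATAAG were in 2.94%, against 0.792%, 0.880% and 2.29% in the same order. The CTCF core letters AGGGGGC were in 12.7% [8.85 to 18.0], against 19.8%, 22.7% and 17.5%, and the SP/KLF letters GGGCGGGG in 36.3%, against 40.6%, 42.7% and 29.6%. Base composition moved with these shares and its part was not tested. A match is a run of letters and not a bound site. Of the other 10 motifs, NFY (CCAATCA) was in 5.39% [3.04 to 9.4], against 9.50% for MR49F regions with both antibodies and 7.93% for all windows, and AP-1 (TGANTCA) in 3.43%, against 3.38% and 6.15%. The rest were at 0% for GRHL (AACCGGTT), 0.980% each for TEAD (GGAATGT) and HOXB13 (CCAATAAA), 2.94% each for FOXA (TGTTTAC) and NRF1 (GCGCATGCG), 3.43% for CRE (TGACGTCA), 4.41% for ETS (CCGGAAGT) and 8.82% for E-box (CACGTG). For each of these 8 the SMARCC2-alone interval included the share of all windows.

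The lists held 47526 peaks for MR49F SMARCC2, 44229 for MR49F BRG1, 25639 for LNCaP SMARCC2 and 36101 for LNCaP BRG1 on the chromosomes used. Depth was estimated at about 18.5 M tags for MR49F SMARCC2 and 20.4 M for MR49F BRG1, and was not estimated for the LNCaP lists. The estimate used the lowest background solved from fold and p-value. It assumed a genome of 2.7 Gb and a fragment length equal to the narrowest peak, 350 and 346 bp. As a check of the cell type, 9 luminal prostate markers had a peak at 9 genes with MR49F SMARCC2, 9 with MR49F BRG1, 8 with LNCaP SMARCC2 and 9 with LNCaP BRG1. Of 5 neuroendocrine markers 3, 2, 1 and 1 had a peak in the same order, of 4 leukocyte markers 2, 3, 1 and 2, and of 4 fibroblast markers 2, 3, 2 and 3. A peak does not show that a gene is transcribed.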

How the data were processed

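Peak lists of 4 ChIP-seq libraries were used, and the inputs were not analysed here. Per the submitters' processing notes, BWA 0.7.10, SAMtools and MACS2 2.1.0 were used with build hg38; the control input and the treatment of duplicates were not given in the sources used here. The values of each deposited peak are the authors' fold enrichment (a ratio over local background), −log10 p-value and −log10 q-value, compared within a list, and a score that was not used.

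Touching peaks (1 bp or more) were joined. Tags at the summit and local background were solved from deposited fold and −log10 p-value under the caller's Poisson formula; 99.8% of MR49F SMARCC2 peaks gave whole tags (within 0.01). Solving and joining were tested on simulated data. Genes and promoter windows came from RefSeq tables on GRCh38.p14, the assembly of hg38; each region went, by its midpoint, to its closest protein-coding gene, up to 100 kb from a gene end. Exons and introns were not separated. Background was the median over peaks per chromosome or 10 Mb, scaled to each list's genome-wide median. Shares have Wilson 95% intervals. With 1 library per group no p-value was computed.

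The regions, the 18 gene lists (310 of 310 entries matched) and the 14 motifs were chosen with earlier results of these data known. Named genes were the 10 with the most regions, those of the 8 strongest regions and up to 3 per list, of which some are not reported here; others (genes of full windows, long genes, miRNA genes) were chosen after their values were seen. Python 3.11.15, NumPy 2.4.6, pandas 2.3.3, SciPy 1.17.1 and matplotlib 3.10.9 were used.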

Additional observations from a re-analysis of the deposited data

Results flagged for a closer look

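Outside the chromosomes used, 89 MR49F SMARCC2 peaks lay on other sequences of the build, and 25 of them overlapped no peak of the other 3 lists, with a highest −log10 q of 20.8. That is 28.1% [19.8 to 38.2] of them, against 17.1% of the peaks on the chromosomes used. These peaks are in no comparison of the report.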

How the results depend on the processing

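No paired analysis was possible because the labels give 1 library per group. The 8128 regions became 13796 when peaks had to overlap reciprocally by 50% to count as shared, 5395 with a −log10 q of 5 or more asked of MR49F SMARCC2 alone and 1819 among the 10000 strongest peaks of each list; under the other 5 rules the number was within 1.5 times of the main one. The share at gene ends was 12.7% under reciprocal overlap, 5.62% and 4.86% with no other peak within 500 bp or 2 kb, 8.37% with a −log10 q of 5 in all lists, 5.10% with 5 in MR49F SMARCC2, 8.69% among the 10000 strongest, 7.41% without LNCaP BRG1, and 3.92% or 8.81% with a gene end taken as 500 bp or 2 kb. It was below the share of the other MR49F SMARCC2 regions under each of these rules for choosing regions, by least among the 10000 strongest (8.69% against 11.9%). The share between genes was 38.8% under reciprocal overlap, 46.7% and 48.4% for the 500 bp and 2 kb rules, 48.3% with 5 in MR49F SMARCC2 and 44.1% without LNCaP BRG1. The share of MR49F SMARCC2 peaks in these regions, 17.1%, was 29.0% under reciprocal overlap, 16.0% and 14.0% for the 500 bp and 2 kb rules, 19.8% with 5 in all lists, 13.5% with 5 in MR49F SMARCC2, 18.2% among the strongest and 19.8% without LNCaP BRG1. The share with another peak within 10 kb was 66.6%, 39.6%, 30.7%, 37.2%, 38.9%, 21.9% and 41.9% in that order. The share of genes with a region was 31.7% under reciprocal overlap, 17.9% and 15.6% for the 500 bp and 2 kb rules, 13.4% with 5 in MR49F SMARCC2, 5.51% among the strongest, 22.1% without LNCaP BRG1, 18.3% without X and 8.13% with the nearest end within 10 kb. The median −log10 q was 6.58 under reciprocal overlap, 6.70 for the 2 kb rule, 8.15 and 8.26 with 5 in all lists or in MR49F SMARCC2, and 28.3 among the strongest. These moves follow from which peaks each rule keeps or counts. Of 57 genes followed, the number whose count moved by over 1.5 times was 51 among the strongest peaks (37 at 0), 49 with the nearest end within 10 kb (35 at 0), 23 under the 2 kb rule (12 at 0), 23 with spans extended by 10 kb (14 at 0), 21 and 16 with 5 in MR49F SMARCC2 or in all lists (10 at 0 in each), 16 under reciprocal overlap, 10 under the 500 bp rule (7 at 0) and 4 without X. Without LNCaP BRG1, 6 moved: KDM6A, ZBTB16, SOX9, ZEB1, NKD1 and MYC, to 10, 7, 2, 2, 2 and 2 regions. The part of depth in missing calls was not tested.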
